A study of Mus musculus with 16 samples.

Results

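Transcripts of 10 genes for the release, storage and uptake of calcium were examined in the gastrocnemius, a fast-twitch calf muscle, of male BALB/c mice: Cacna1s, Ryr1, Trdn, Casq1, Casq2, Atp2a1, Atp2a2, Sln, Pln and Pvalb. They were taken by symbol from the count and FPKM tables. All 10 of the 35415 listed genes were found, and all 10 were among the 14749 genes with enough counts for testing.

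In the study, RNA from 16 mice was sequenced, with 4 mice in each of 4 groups, and the comparisons ask what a tumor and treadmill training do to muscle transcripts. Group C (control) had neither tumor nor training, and group E (exercise) was trained without a tumor. Group T (tumor-bearing) received CT26 cells, a mouse colon carcinoma line, under the skin of the left dorsolateral hind limb region, and group TE (tumor-bearing plus exercise) received these cells and was trained. C and E received saline in place of cells. The mice were 8 weeks old when obtained. Training began on the day after inoculation and lasted 4 weeks, with 6 sessions a week of 60 min each at a speed of 14 m/min, and untrained mice were placed on a treadmill that did not move. The tumor therefore grew near a hind limb, and the side from which the muscle was taken is not given in the sources used here. Libraries are named by group and replicate number, so T4 is the fourth T replicate.

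In a muscle fiber, depolarization moves the voltage sensor of the transverse tubule, which opens the release channel of the sarcoplasmic reticulum, the internal calcium store. Calcium then binds the contractile filaments, and ATP-driven pumps return it to the store, where calsequestrin binds it. Fast and slow fibers use different isoforms of the pump and differ in their mix of calsequestrin isoforms. Fast fibers of small mammals also hold much parvalbumin, a cytosolic calcium buffer. These are bulk samples, in which fewer fibers of a type and less RNA per fiber cannot be told apart.

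None of the 10 genes differed between groups at an adjusted p under 0.05 in any comparison. What varied was a set of 3: Sln, which encodes sarcolipin, Casq2, the cardiac and slow-fiber calsequestrin, and Atp2a2, the cardiac and slow-fiber pump. Their highest levels were in T4, where Sln reached 32.4 FPKM against a median of 2.82 FPKM over the 16 libraries. Atp2a2 and Casq2 followed the transcripts of slow fibers from mouse to mouse, and Sln did so with a relation that rested on T4. The other members had smaller ranges, from 1.28-fold for Atp2a1 to 1.92-fold for Casq1 over all libraries (FPKM).

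Sarcolipin and phospholamban, the product of Pln, are small membrane proteins that bind the pump and lower its activity. The coding sequences of their genes are shown because these inhibitors differed most in how they varied, 32.1-fold for Sln and 1.68-fold for Pln over the 16 libraries (FPKM). Each lies in 1 exon on the plus strand of GRCm39, at chr9:53760757-53760852 for Sln (31 codons before the stop) and at chr10:53219960-53220118 for Pln (52 codons before the stop). Capitals mark the start and stop codons.
Sln: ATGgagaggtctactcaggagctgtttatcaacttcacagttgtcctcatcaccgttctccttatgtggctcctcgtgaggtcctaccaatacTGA
Pln: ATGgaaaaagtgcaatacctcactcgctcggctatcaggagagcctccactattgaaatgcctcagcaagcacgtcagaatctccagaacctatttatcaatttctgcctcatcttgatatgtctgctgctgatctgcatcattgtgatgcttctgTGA

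The 250 bases before the annotated start of the Casq2 transcript (GRCm39, chr3:101992984-101993233, plus strand) and of the Sln transcript (GRCm39, chr9:53757198-53757447, plus strand) are shown. These genes were chosen because their levels correlated over the 16 libraries (r = 0.78), though this relation rested on single libraries. Capitals mark matches to the E-box CANNTG, the letters that myogenic factors such as MyoD bind, which read the same on both strands.
Casq2 promoter: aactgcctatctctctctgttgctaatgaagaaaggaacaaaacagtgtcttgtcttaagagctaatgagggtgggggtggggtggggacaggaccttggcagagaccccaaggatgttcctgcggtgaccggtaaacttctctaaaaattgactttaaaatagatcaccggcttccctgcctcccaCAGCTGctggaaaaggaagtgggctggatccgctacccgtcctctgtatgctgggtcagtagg
Sln promoter: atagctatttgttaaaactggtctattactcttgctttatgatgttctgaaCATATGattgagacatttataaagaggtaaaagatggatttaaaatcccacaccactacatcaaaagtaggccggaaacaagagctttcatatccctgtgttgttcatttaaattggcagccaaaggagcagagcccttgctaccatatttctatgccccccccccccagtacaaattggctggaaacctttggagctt
Each window held 1 match, 63 bases before the start in Casq2 and 199 bases before the start in Sln, and neither held a MEF2 motif on either strand. Of 21770 windows of the same length before protein-coding genes, 64.8% held an E-box and 2.79% a MEF2 motif, so these matches are common and are given as a description only.

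Library totals were 35628211 to 37635741 counts, and 3 counts in a library were at most 0.0842 CPM. The 7 fast fiber markers, such as Myh4, summed to 69236 to 85950 CPM, against 666 to 2510 CPM for 7 slow fiber markers, and 6 general skeletal muscle markers summed to 66093 to 79051 CPM. The highest slow fiber sums were those of T4 at 2510, C4 at 1828 and T3 at 1676 CPM. A list of 6 cardiac markers summed to 24.2 to 118 CPM, with Nppa, Nppb and Myl7 at 0 counts in all 16 libraries. A list of 12 lymph node and lymphocyte markers reached 154 CPM in TE4, against 5.37 to 55.4 CPM elsewhere. A list of 5 erythroid markers summed to 223 to 326 CPM in C and 238 to 348 in E, against 471 to 524 in T and 554 to 785 in TE.

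No member of the release complex differed at an adjusted p under 0.05. Cacna1s (GRCm39, chromosome 1, 135980259 to 136047560), the voltage sensor of the transverse tubule, ranged from 113 FPKM in E2 to 160 FPKM in T4. Its group means were 133 ± 8.55 FPKM in C, 126 ± 10.2 in E, 142 ± 13.7 in T and 132 ± 6.31 in TE (SD, n = 4 each). Cacna1s had a log2 difference of 0.12 (SE 0.0544) for tumor, averaged over untrained and trained mice, and of -0.12 (SE 0.0544) for training, averaged over mice without and with a tumor. The edgeR quasi-likelihood test gave unadjusted p = 0.0408 for tumor and 0.0484 for training, with adjusted p = 0.324 and 0.463. Values of the compared groups overlapped in both cases. For tumor, all 6 general skeletal muscle markers were also higher (median log2 difference 0.14). Of these, 4 had an unadjusted p under 0.05 (14.2% of all tested genes), and edgeR called 0 after adjustment. For training, 2 of the 6 were higher and 4 lower (median -0.006).

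Ryr1 (chromosome 7, 28702769 to 28824604, minus strand), the release channel, had 197, 166, 221 and 186 FPKM in C1 to C4 and 199, 211, 227 and 239 FPKM in T1 to T4. In E1 to E4 it had 179, 158, 226 and 207 FPKM, and in TE1 to TE4 187, 202, 218 and 188 FPKM. The T libraries lay in the upper part of the range of C and beyond it, and the groups overlapped. The log2 fold change for T vs C was 0.21 (SE 0.104, 95% interval -0.01 to 0.43, edgeR adjusted p = 0.383).

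Trdn (chromosome 10, 32956550 to 33356376), triadin, anchors calsequestrin to the release channel. It ranged from 192 FPKM in E2 to 254 FPKM in C1, and all 4 TE libraries (221, 223, 235 and 225 FPKM) stood near the top of E (219, 192, 227 and 222 FPKM). On the CPM scale used for testing, the lowest TE library lay above the highest E library, the only case among the members in the 4 pairwise comparisons of groups that did not overlap on that scale. On the FPKM scale TE and E overlapped, and TE lay just above T (220.3, 211.5, 217.9 and 213.5 FPKM). The difference was small, 0.12 on the log2 scale (SE 0.0747), and did not pass (edgeR adjusted p = 0.662). In TE vs E, 6.62% of all tested genes had groups that did not overlap, so 1 of 10 members is near that background.

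**Figure D1:**
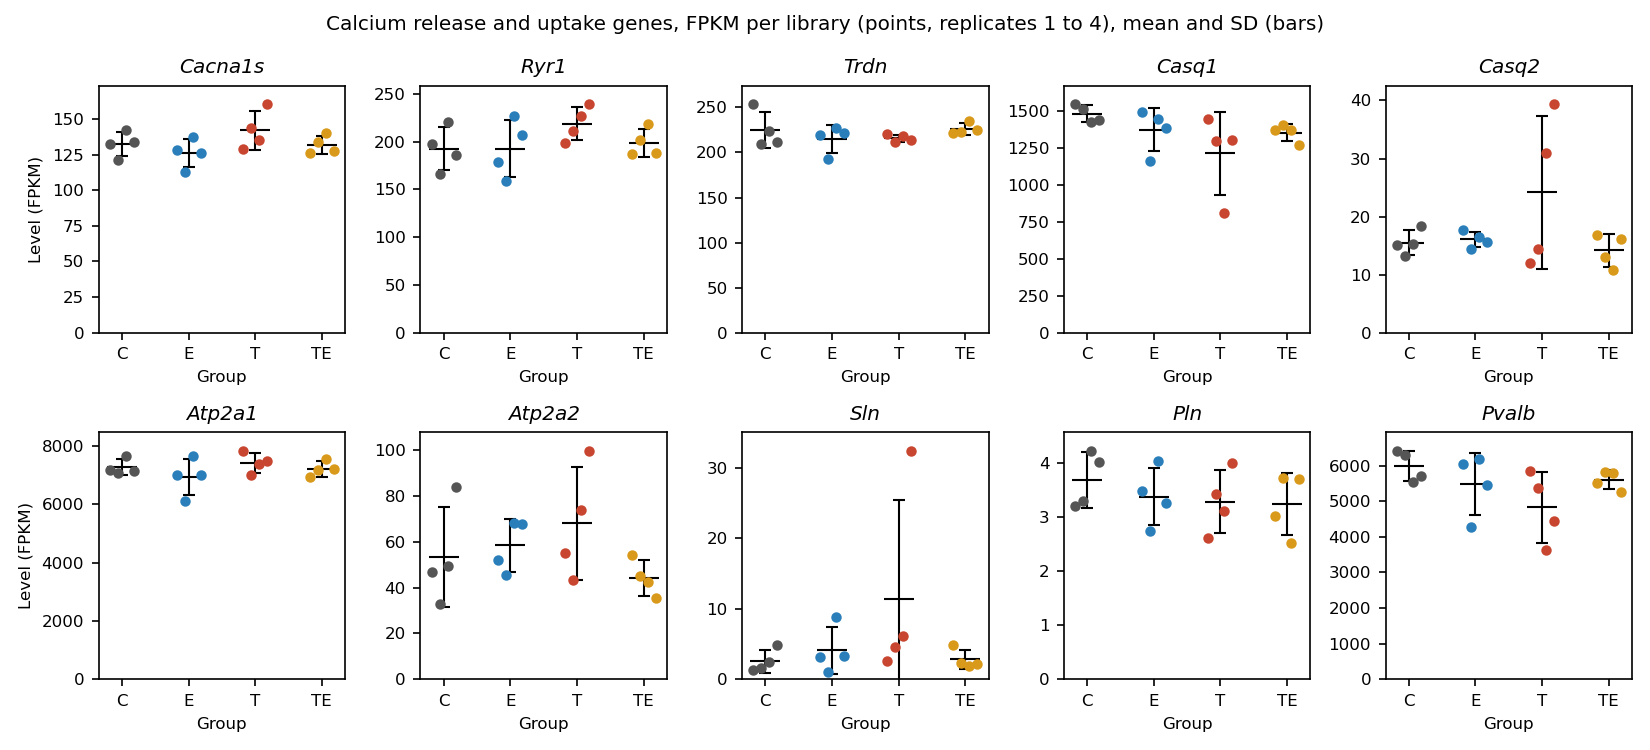
FPKM of the 10 genes in each library (points, in replicate order 1 to 4) with the group mean and SD (black bars, n = 4), each panel with its own axis from 0 (lower bars cut at 0). The T points of Sln and Casq2 spread widely, with T4 highest at 32.4 and 39.3 FPKM, while Atp2a1 stays between 6115 and 7837 FPKM in all libraries.

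Calsequestrin, the calcium-binding protein of the store, has a skeletal isoform, Casq1 (chromosome 1, 172037459 to 172049328, minus strand), and a cardiac and slow-fiber isoform, Casq2 (chromosome 3, 101993234 to 102056307). Casq1 was at 1545, 1514, 1425 and 1437 FPKM in C1 to C4, and at 1443, 1298, 806 and 1306 FPKM in T1 to T4. T3 stood far below every other library, and T1 lay within the range of C. The group means of Casq1 fell in the order C (1480 ± 58.2 FPKM), E (1371 ± 145), TE (1353 ± 55.9) and T (1213 ± 280, SD, n = 4 each), and no neighbors in this order differed beyond their spread. The T vs C log2 fold change was -0.26 (SE 0.137, edgeR adjusted p = 0.419), and it was -0.10 without T3.

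Casq2 was much lower, at 15.1, 13.2, 15.2 and 18.4 FPKM in C1 to C4 and 12.01, 14.39, 30.95 and 39.35 FPKM in T1 to T4. It had 17.7, 14.4, 16.5 and 15.6 FPKM in E1 to E4 and 16.7, 13.0, 10.8 and 16.2 FPKM in TE1 to TE4. T3 and T4 were above every other library, whereas T1 was below all C libraries, so T and C overlapped. The log2 fold change was 0.66 for T vs C (SE 0.262, 95% interval 0.11 to 1.21, edgeR adjusted p = 0.256). For TE vs T it was -0.78 (SE 0.263, edgeR adjusted p = 0.724). Without T4 alone these values were 0.31 and -0.43. Without T3 and T4, a choice made after seeing the data, the T vs C difference of Casq2 turned to -0.18.

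As a share of the summed FPKM of both calsequestrins, Casq2 made up 1.04% ± 0.169 in C, 1.16% ± 0.0508 in E, 2.14% ± 1.40 in T and 1.04% ± 0.229 in TE (SD, n = 4 each). It was 3.70% in T3 and 2.92% in T4, and between 0.781% and 1.26% in the other 14 libraries. T and C overlapped, and the exact permutation test of T vs C gave p = 0.286 (two-sided, adjusted p = 0.569 over 18 tests of shares).

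The SERCA pumps return calcium to the store. The fast isoform Atp2a1 (chromosome 7, 126045013 to 126063423, minus strand) was the most abundant member, with 6115 FPKM in E2 to 7837 FPKM in T1 and 2.104% to 2.696% of all counts of a library. Its group means were 7269 ± 269 FPKM in C, 6943 ± 629 in E, 7431 ± 343 in T and 7215 ± 265 in TE (SD, n = 4 each). The log2 difference was at most 0.11 in size in the 4 pairwise comparisons, with 95% intervals within -0.25 and 0.25.

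Atp2a2 (chromosome 5, 122591575 to 122640903, minus strand) was at 46.9, 33.0, 49.5 and 84.1 FPKM in C1 to C4 and at 52.2, 45.4, 68.4 and 67.8 FPKM in E1 to E4. It was at 55.2, 43.3, 74.0 and 99.8 FPKM in T1 to T4 and at 54.4, 45.1, 42.3 and 35.2 FPKM in TE1 to TE4. C4, T3 and T4 were the highest in the series. The TE libraries spanned the fewest FPKM of any group, though as a fold the range of E was smaller. The order of the means was T (68.1 ± 24.6), E (58.5 ± 11.51), C (53.4 ± 21.7) and TE (44.3 ± 7.94 FPKM, SD, n = 4 each), and all groups overlapped. TE vs T had a log2 fold change of -0.63 (SE 0.257, 95% interval -1.17 to -0.09, edgeR adjusted p = 0.827), and T vs C one of 0.37 (SE 0.256, adjusted p = 0.543). Without T4 the T vs C value was 0.13 and the TE vs T value -0.38, and without C4 the T vs C value was 0.68. The slow fiber markers moved with these values: all 7 were lower in TE vs T, with log2 fold changes of -1.13 to -0.60 (median -0.90), and higher in T vs C, with 0.13 to 0.65 (median 0.42). All 7 had an unadjusted p under 0.05 in TE vs T (5.88% of all tested genes) and 0 of 7 did in T vs C (14.2%), and edgeR called 0 of 7 in both at an adjusted p under 0.05. Their summed level was 666 to 1828 CPM in C, 773 to 1228 in E, 854 to 2510 in T and 716 to 987 in TE, with none at 0, and within T the high sums were those of T3 and T4 (1676 and 2510 CPM, against 941 and 854 in T1 and T2). With a slow fiber index, the mean log2 CPM of these 7 markers, as a covariate (added after seeing the data), the TE vs T value was -0.03 for Atp2a2 and -0.16 for Casq2. Both genes follow this index (r = 0.95 and 0.86), so such a fit takes up part of any difference, and the cause was not tested. Atp2a2 made up 0.464% to 1.31% of the summed pump FPKM, and none of its share tests passed.

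Sln (chromosome 9, 53742537 to 53761846) had the widest spread. It was at 1.295, 1.516, 2.486 and 4.877 FPKM in C1 to C4 and at 3.12, 1.01, 8.89 and 3.31 FPKM in E1 to E4. It was at 2.52, 4.60, 6.14 and 32.4 FPKM in T1 to T4 and at 4.78, 2.30, 1.91 and 2.20 FPKM in TE1 to TE4. T4 stood apart from every other library, and E3, without a tumor, was the second highest. These levels rest on few reads, 19 counts in E2 to 174 in E3 and 620 in T4, all above the 3-count floor.

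The group mean of Sln was 2.54 ± 1.64 FPKM in C, 4.08 ± 3.37 in E, 11.4 ± 14.1 in T and 2.80 ± 1.33 in TE (SD, n = 4 each), and all pairs of groups overlapped. T vs C had a log2 fold change of 2.19 (SE 0.717, 95% interval 0.68 to 3.70, edgeR adjusted p = 0.173). TE vs T had one of -2.04 (SE 0.711, edgeR adjusted p = 0.738), and the interaction of tumor and training was -2.68 (SE 1.01, edgeR adjusted p = 0.471). Without T4, the T vs C value was 0.82, the TE vs T value -0.67 and the interaction -1.30, and without C4 the T vs C value was 2.71.

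T4 also held the highest sums of other marker lists. Its sum over 5 markers of regenerating fibers was 169.6 CPM, against 62.2 to 97.3 CPM in the other 15 libraries. Of these markers, T4 was highest for Myh3 (71.5 CPM, median 2.40 over all libraries), Myh8 (53.6, median 27.2) and Myog (11.3, median 6.05). Myod1 was highest in TE3. Its sum over 8 neutrophil markers was 45.2 CPM, against 8.21 to 17.2 CPM in the other T libraries, 10.4 to 17.3 CPM in TE and 0.824 to 4.02 CPM in C and E. None of the neutrophil markers was at 0 in T, and 2 to 5 of the 8 were at 0 in each C and E library. In T vs C, edgeR called 5 of the 6 tested neutrophil markers higher (0.678% of all tested genes were called). The part of these cells in the Sln level was not tested. With the slow fiber index as a covariate, the Sln T vs C value was 1.17 (edgeR adjusted p = 0.346) and the TE vs T value -0.31. Sln also follows the index (r = 0.78), so the same limit holds.

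Pln (chromosome 10, 53199622 to 53223512) did not share this spread, with 2.52 FPKM in TE3 to 4.24 FPKM in C3. Its means were 3.69 ± 0.513 FPKM in C, 3.39 ± 0.536 in E, 3.29 ± 0.580 in T and 3.25 ± 0.582 in TE (SD, n = 4 each). Log2 differences of Pln were at most 0.16 in size in the pairwise comparisons. Of the summed FPKM of both inhibitors, Sln made up 38.0% ± 11.7 in C, 48.3% ± 17.1 in E, 65.4% ± 17.2 in T and 44.9% ± 11.2 in TE (SD, n = 4 each). It was 28.8%, 31.4%, 37.0% and 54.8% in C1 to C4 and 49.0%, 57.3%, 66.4% and 89.0% in T1 to T4. These groups overlapped by C4 and T1, and the exact permutation test gave p = 0.0571 (two-sided, adjusted p = 0.514). With 4 against 4, p cannot go below 0.0286, and 0 of the 18 share tests passed after adjustment.

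The lengths behind the FPKM values limit such shares. The authors' length was 520 bases for Sln and 2480 for Pln, and the GENCODE canonical transcripts are 1318 and 4105 bases long. It was 2565 bases for Casq2 and 1874 for Casq1, against 5530 and 2164. With the canonical lengths, the Casq2 and Sln shares would be lower in every library. The length was 5294 bases for Atp2a2 and 3440 for Atp2a1, against 4438 and 4141, so the Atp2a2 share would be higher.

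**Figure D2:**
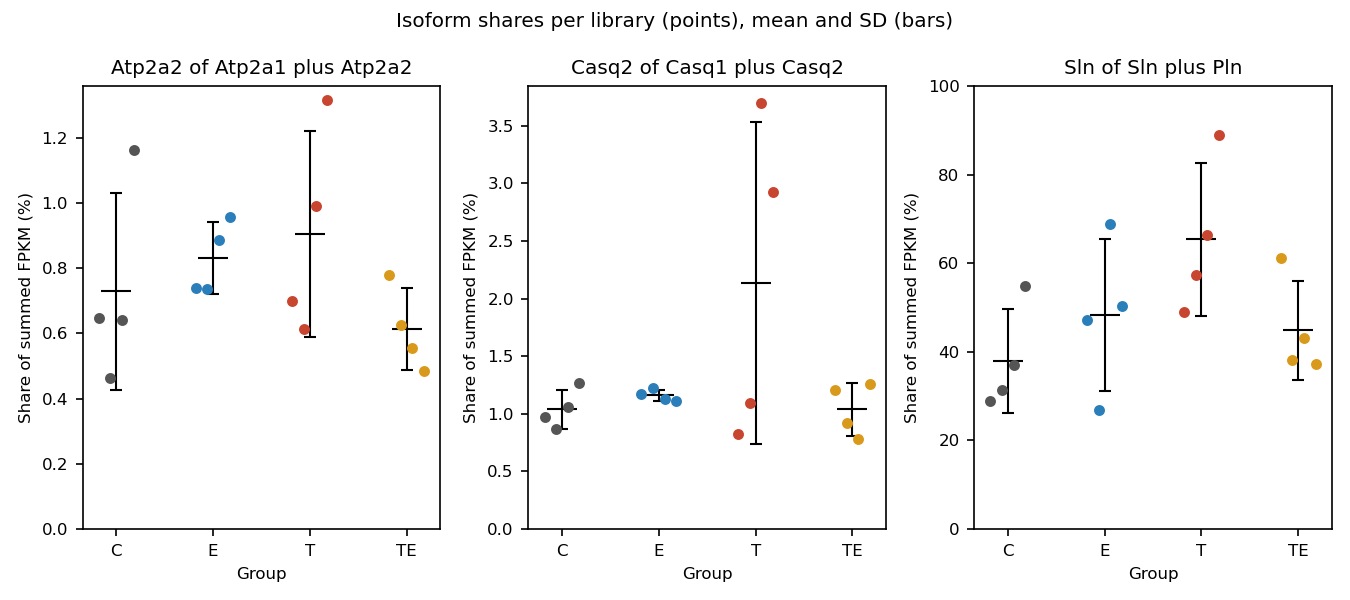
Share of the slow-fiber pump, the slow-fiber calsequestrin and sarcolipin in the summed FPKM of each isoform or inhibitor pair (percent), per library (points) with group mean and SD (bars, n = 4). The Casq2 shares of T3 (3.70%) and T4 (2.92%) stand above all others, and the Sln share of T4 is 89.0%.

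Pvalb (chromosome 15, 78075314 to 78091149, minus strand), parvalbumin, is the cytosolic buffer of fast fibers. It was at 6408, 6299, 5544 and 5705 FPKM in C1 to C4 and at 5860, 5384, 3623 and 4439 FPKM in T1 to T4. It was at 6043, 4262, 6189 and 5444 FPKM in E1 to E4 and at 5502, 5831, 5802 and 5272 FPKM in TE1 to TE4. T3, E2 and T4 were the lowest libraries, in that order, and T1 lay within the range of C. The T vs C log2 fold change was -0.28 (SE 0.137, 95% interval -0.57 to 0.01, edgeR adjusted p = 0.370), and it was -0.16 without T3. TE vs T had a log2 fold change of 0.20 (SE 0.137, adjusted p = 0.900 in edgeR), and it was 0.07 without T3.

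E2 and T3, each the lowest library for some members, had the highest adipocyte sums. E2 was the lowest library for Ryr1, Atp2a1, Cacna1s, Trdn and Sln, and T3 for Casq1 and Pvalb. The sum over 6 adipocyte markers was 225 CPM in E2 and 163 CPM in T3, against 13.1 to 70.8 CPM in C and 38.7 to 97.3 CPM in TE. E3 followed with 139 CPM and was the highest E library for Ryr1, Atp2a1, Cacna1s and Pvalb, and T4 with 136 CPM was the highest of all 16 for Ryr1 and Cacna1s, the third lowest for Pvalb and below all C libraries for Casq1. The sum over 6 tendon markers was high in the whole E group, 146 to 243 CPM with E2 highest, against 73.8 to 127 CPM in C, T and TE, and edgeR called 2 of the 6 higher in E vs C (Fmod and Tnmd, adjusted p = 0.0206 and 0.0274). Over 6 nerve markers E2 summed to 890 CPM and T3 to 651 CPM, with C2 highest at 1016 CPM and the other libraries at 318 to 755 CPM. No marker of these 3 lists was at 0 in any library, and their part in these levels was not tested.

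**Figure D3:**
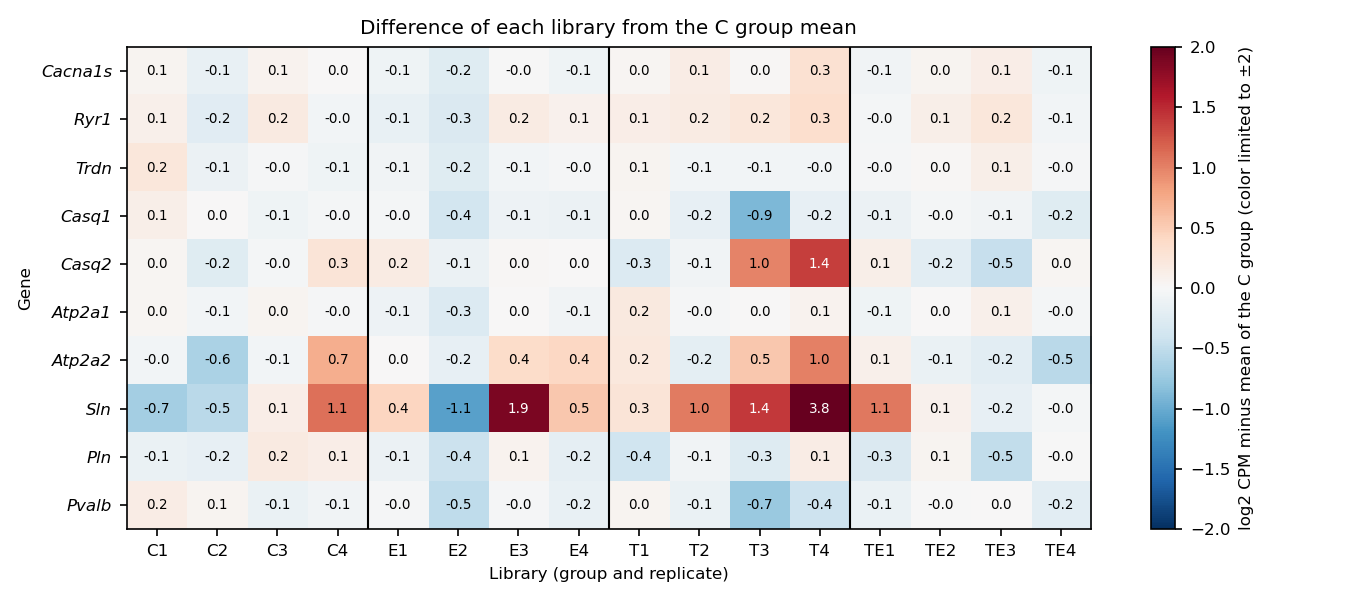
Difference of log2 CPM of each gene in each library from the mean of the C group, with the 16 libraries in columns and vertical lines between groups (color limited to ±2, values printed). The Casq2, Atp2a2 and Sln rows are highest in T4, and the Casq1 and Pvalb rows are lowest in T3.

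Across the members, edgeR called 0 of 10 in T vs C (0.678% of all tested genes passed), in TE vs E (0.231%), in E vs C (0.0881%) and in TE vs T (0%). It also called 0 of 10 for tumor over both training states (1.36% of all tested genes), for training over both tumor states (0.00678%) and for the interaction (0%). DESeq2 and limma-voom called 0 of 10 in these comparisons too. At an unadjusted p under 0.05, 2 of 10 members passed in T vs C (Casq2 and Sln, against 14.2% of all tested genes) and 3 of 10 in TE vs T (Atp2a2, Casq2 and Sln, against 5.88%), and both counts were 0 without T4. In E vs C 0 passed (14.2% of all genes), and in TE vs E 0 (9.23%). Cacna1s was the 1 member that passed for tumor (14.2%) and for training (10.8%), and Casq2 and Sln the 2 for the interaction (9.21%), and these counts were also 0 without T4. On the CPM scale, no member had groups without overlap in T vs C (6.86% of all tested genes), E vs C (9.08%) or TE vs T (2.58%).

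T vs C and TE vs T share the T libraries, and a high or low T group gives opposite signs in both. The median log2 fold change over the 10 members was 0.09 in T vs C and -0.09 in TE vs T, beside medians of all tested genes of -0.0012 and 0.0014. In E vs C, 3 members were higher and 7 lower, with a median of -0.10, and values from -0.17 for Pvalb to 0.64 for Sln (SE 0.717). Without E3 this Sln value was -0.06. In TE vs E, 6 were higher and 4 lower, from -0.49 for Sln (SE 0.713) to 0.12 for Trdn. The Sln value turned to 0.21 without E3, and the Trdn value was 0.08 without E2.

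**Figure D4:**
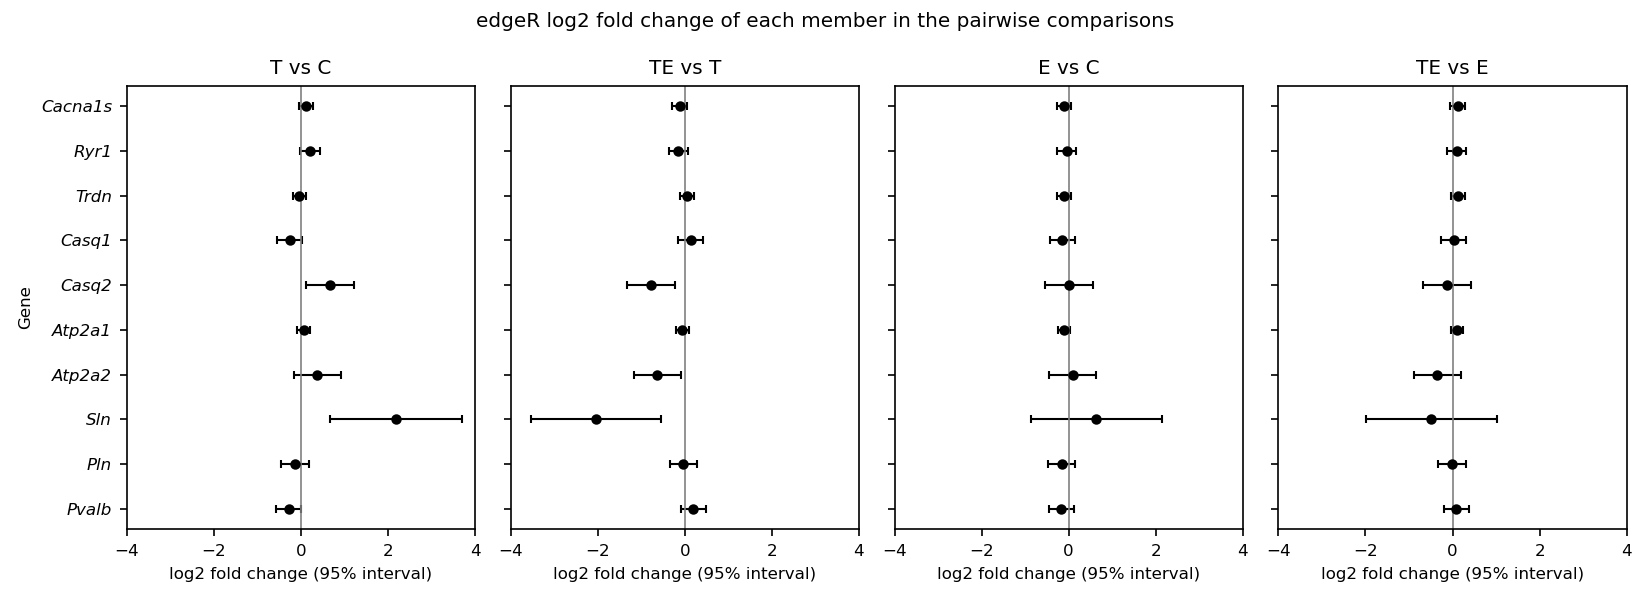
Log2 fold change of each gene from edgeR (points) with its 95% interval (bars) in the 4 pairwise comparisons, on 1 common axis with 0 marked. Intervals not adjusted for testing many genes exclude 0 for Casq2 and Sln in T vs C and for Atp2a2, Casq2 and Sln in TE vs T, and for no gene in the other panels.

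Because Atp2a2, Casq2 and Sln are isoforms or partners found in slow fibers, each member was set against the slow fiber index, the mean log2 CPM of Myh7, Tnni1, Tnnt1, Tnnc1, Myl2, Myl3 and Tpm3, none of which is a member. The index was highest in T4 (8.34), C4 (7.88) and T3 (7.72) and lay between 6.32 and 7.26 in the other 13 libraries. Atp2a2 followed it most closely, with Pearson's r = 0.95 and Spearman's rho = 0.94 over the 16 libraries. Its permutation p was 1e-05 for each, the smallest that 100000 resamples can give, with adjusted p = 1e-04 over the 10 members. Casq2 had r = 0.86 (permutation p = 0.00011, adjusted p = 0.00055) and rho = 0.77 (permutation p = 0.0006, adjusted p = 0.003). Sln had r = 0.78 (permutation p = 0.00075, adjusted p = 0.0025) and rho = 0.71 (permutation p = 0.00309, adjusted p = 0.0103).

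Without C4 and T4, the libraries farthest from the median of the index, r was 0.90 for Atp2a2, 0.79 for Casq2 and 0.57 for Sln (permutation p = 2e-05, 0.00179 and 0.0312). With values centered on the group means, r was 0.95, 0.83 and 0.78 in the same order. The relation of Sln rested most on T4: without that library its r was 0.59 and its adjusted permutation p 0.0627. The other members had r from -0.41 for Pvalb to 0.49 for Cacna1s, and none passed after adjustment. Casq1, the other calsequestrin, had r = -0.26 and rho = -0.06 (permutation p = 0.312 and 0.815). Pln, the other inhibitor, had r = 0.44 and rho = 0.38 (permutation p = 0.0896 and 0.15), with r = 0.12 without C4 and T4. Leaving out TE3 raised the number of members that passed from 3 to 5, adding Ryr1 and Cacna1s.

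**Figure D5:**
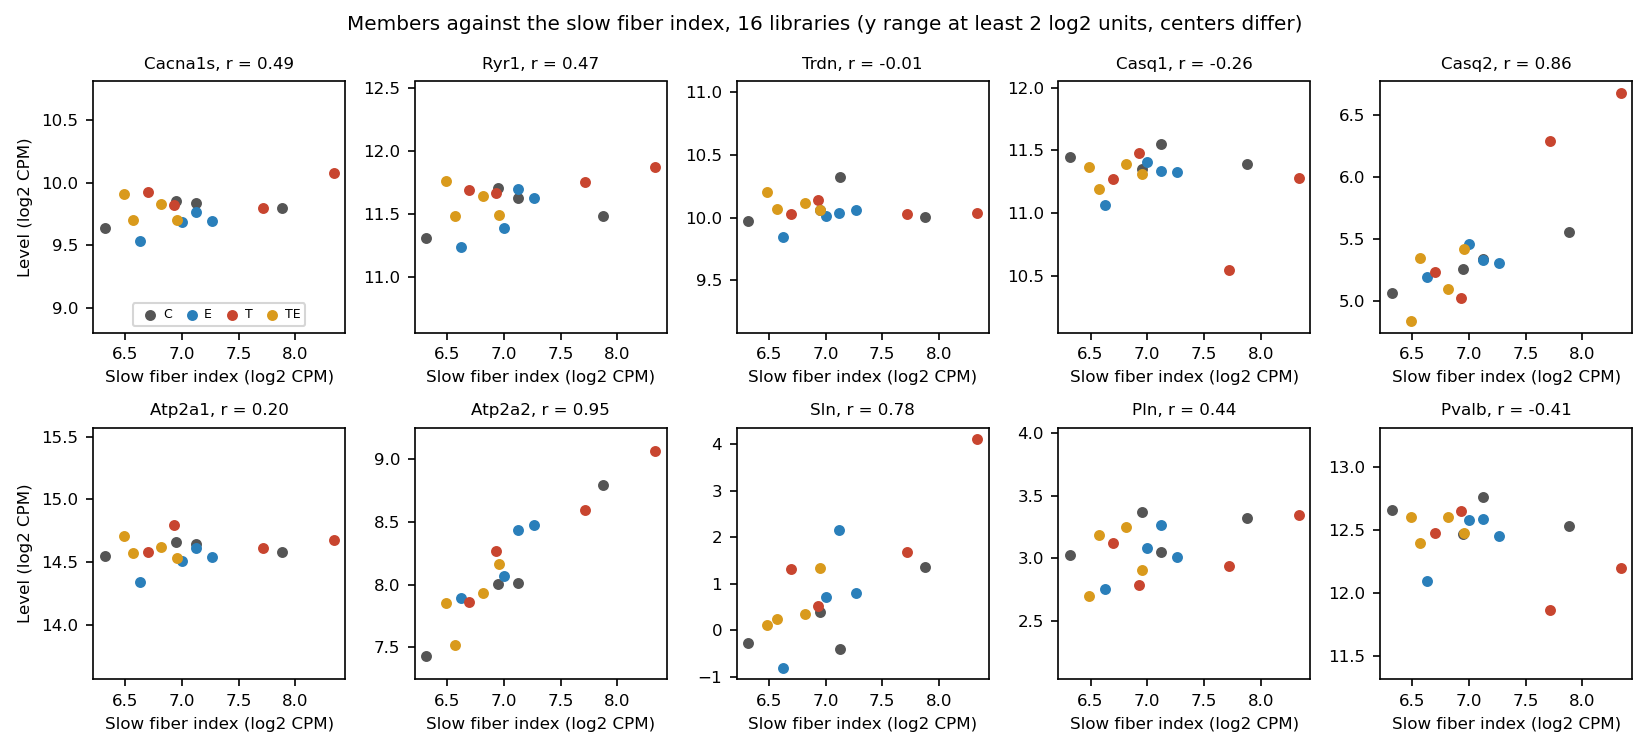
Log2 CPM of each gene against the slow fiber index (mean log2 CPM of 7 slow fiber genes) in the 16 libraries, colored by group, with Pearson's r in each title. Atp2a2 (r = 0.95), Casq2 (r = 0.86) and Sln (r = 0.78) rise with the index, and the points of T4 lie at its upper end at 8.34.

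Among the 45 pairs of members, 8 had an adjusted permutation p under 0.05 for Pearson's r, all with positive r, and for 5 of these the adjusted permutation p of Spearman's rho was also under 0.05. Casq1 and Pvalb went together most closely (r = 0.92, rho = 0.90, n = 16), followed by Ryr1 and Cacna1s, the channel and its voltage sensor (r = 0.88, rho = 0.84). Ryr1 and Cacna1s also went with Atp2a1 (r = 0.76 and 0.73, rho = 0.79 and 0.81), and Atp2a1 with Trdn (r = 0.70, rho = 0.62). The other 3 pairs were those of Atp2a2, Casq2 and Sln, with r = 0.78 for Atp2a2 and Sln, 0.78 for Casq2 and Sln and 0.72 for Atp2a2 and Casq2, and rho of 0.78, 0.64 and 0.65. The rho of Atp2a1 with Trdn and the rho of Casq2 with Atp2a2 and with Sln had adjusted permutation p = 0.0647, 0.0559 and 0.0631. Adjusted permutation p for Pearson's r ran from 0.000225 to 0.0315 over the 8 pairs. Centered on group means, r was 0.57 to 0.90. The pair of Casq2 and Sln rested on single libraries: without the libraries farthest in Casq2, r was 0.44 (permutation p = 0.116).

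Over all tested genes outside the list, the genes most like Atp2a2 in log2 CPM over the 16 libraries were Myh6 (r = 0.97), Myh7 (0.97) and Tpm3 (0.97), and those most like Casq2 were Myl2 (0.92), Myom3 (0.91) and Tnni1 (0.89). For Casq1 they were Slc37a4 (0.96), Prkag3 (0.93) and Sypl2 (0.91), and for Pvalb Ociad2 (0.90), Cib2 (0.89) and again Slc37a4 (0.89). Hif1an headed the lists of both Ryr1 (0.93, then Sptb 0.92 and Zfp106 0.91) and Cacna1s (0.88, then Fyco1 0.87 and Nfix 0.87). Sln was most like Xpo4 (0.90), Atp1b4 (0.88) and Camk2b (0.86), and Pln like Rnf213 (0.89), Dph6 (0.86) and Pwwp3a (0.86). Atp2a1 was most like Anapc5 (0.89), Prps1 (0.88) and Oxsr1 (0.88), and among the genes most like Trdn were Sgcb (0.83) and the creatine kinase gene Ckm (0.79). These values were picked as the highest of all genes, share libraries and carry no test.

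The wider calcium machinery was given by 6 lists of 61 genes in all (triad and junction, other release channels, other pumps and regulators, store-operated entry, mitochondrial uptake, and calmodulin with calcineurin), each gene tested. In each of the 7 comparisons, edgeR called 0 of 61 at an adjusted p under 0.05, and 4 (TE vs E) to 11 (E vs C) of 61 had an unadjusted p under 0.05, beside 9.23% and 14.2% of all tested genes in these comparisons. Calm2, 1 of 3 calmodulin genes, came nearest, with 233, 218, 190 and 216 FPKM in C1 to C4 and 157, 170, 120 and 152 FPKM in T1 to T4. All T libraries were below all C libraries, and the log2 fold change was -0.49 (SE 0.11, edgeR adjusted p = 0.0508). Nfatc2, a calcineurin-dependent transcription factor, had a log2 difference of -0.36 for tumor over both training states (edgeR adjusted p = 0.0801), and of -0.58 in TE vs E (edgeR adjusted p = 0.109). Mrln, which encodes myoregulin, another small pump inhibitor, was at 63.3, 74.4, 67.7 and 62.2 FPKM in TE1 to TE4 and at 55.4, 53.9, 56.9 and 42.0 FPKM in T1 to T4. These groups did not overlap, and the log2 fold change for TE vs T was 0.35 (SE 0.102, edgeR adjusted p = 0.693).

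Within the other lists, Hrc, a calcium-binding protein of the store and 1 of 17 triad and junction genes, had log2 fold changes of -0.21 for T vs C and -0.20 for E vs C (edgeR adjusted p = 0.206 and 0.243). Slc8a1, a sodium-calcium exchanger among 11 further pump and regulator genes, had values of 0.55 and 0.64 in the same comparisons (adjusted p = 0.245 and 0.209 in edgeR). Orai2, 1 of 5 genes of store-operated entry, had 0.86 and 0.77, Micu3, 1 of 8 mitochondrial uptake genes, had -0.25 for T vs C, and Ryr2, the cardiac release channel among 5 further release genes, had 0.99 for T vs C with at most 0.868 CPM. In TE vs T, genes with the smallest p of their lists were Tmem38b of the triad (-0.19), Itpr1, an inositol trisphosphate receptor (0.13), Stim1, the store sensor (-0.14), and Nfatc2 (-0.49), beside Mrln. In TE vs E they were Jsrp1 (0.12), Itpr3 (-0.36), Orai3 (0.14) and Slc8b1 (-0.20), beside Mrln (0.33) and Nfatc2, and in E vs C Itpr1 (0.18), Smdt1 (-0.13) and Calm2 (-0.31) beside Hrc, Slc8a1 and Orai2. For tumor over both training states they included Hrc (-0.11), Itpr3 (-0.24), Slc8a3 (-0.29) and Orai2 (0.62), beside Nfatc2. For training over both tumor states they included Tmem38b (-0.16), Itpr1 (0.16), Atp2a3 (0.21), Orai2 (0.53) and Nfatc2 (-0.27). For the interaction they were Hrc (0.19), Ryr2 (-1.79), Slc8a1 (-1.08), Orai3 (0.29), Micu3 (0.34) and Calm2 (0.42), all on the log2 scale. All of these missed the threshold after adjustment over all tested genes.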

How the data were processed

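Gastrocnemius RNA of 16 mice (4 each in C, E, T and TE) was sequenced, and groups were taken from the sample labels. Per the labels and the study's methods, the authors trimmed reads with fastp 0.20.1, aligned them to GRCm39 with HISAT2 2.1.0 and counted genes with HTSeq 0.11.2. The deposited counts are not normalized, and the deposited FPKM values, calculated by the authors, equal each gene's count scaled by its length and the total of its library (checked for 16037 genes). The strand setting and annotation release are not given in the sources used here, so reads of overlapping genes cannot be assigned with certainty. The tables held 0 columns of other samples. With 35628211 to 37635741 counts per library, 3 counts are at most 0.0842 CPM, and such floors cover counting error only.

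Here, edgeR 4.0.16 in R 4.3.3 (filterByExpr, TMM, glmQLFit and glmQLFTest, 1 coefficient per group, all 16 libraries) was fitted to the counts of all genes, of which 14749 passed the filter. Tests were two-sided with Benjamini-Hochberg adjustment over all tested genes, and a gene was called at an adjusted p under 0.05. Log2 CPM used a prior count of 2. Shares of FPKM were compared by exact permutation tests, and correlations by permutation tests with 100000 resamples (Python 3.11.15, scipy 1.17.1). Alternatives were DESeq2 1.42.0, limma 3.58.1 (voom, and log2(FPKM + 1) or log2(FPKM + 0.1)), DESeq2 size factors, no filter, only the groups compared, a replicate block and each library left out. The fits were tested on simulated counts. Positions and sequences were read from GRCm39 and GENCODE vM39.

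The members and lists were chosen with earlier results of these data known. All members are named, with the gene of smallest p from the other calcium lists and the 3 genes of highest correlation per member. A few of these genes are not reported here.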

Additional observations from a re-analysis of the deposited data

Results flagged for a closer look

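Of 40 groups of 4 libraries checked (10 genes in 4 groups), 3 held a library whose gap to its nearest neighbor was over 0.829 of the group's range (Dixon's 95% value), and chance marks about 1 group in 20. Sln in T4 was 17.1 CPM, against 1.38 to 3.16 CPM in the other T libraries, a gap of 0.887 of the range. Sln in TE1 was 2.47 CPM, against 1.03 to 1.23 CPM in the other TE libraries (0.862 of the range). Trdn in T1 was 1130 CPM, against 1044 to 1053 CPM in the other T libraries (0.897 of the range).

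On the CPM scale, but not on the FPKM scale, all 4 E libraries lay below the C mean and all 4 TE libraries above the T mean for Casq1, Pvalb and Trdn. The interaction of tumor and training, which tests this difference, was 0.29 for Casq1, 0.36 for Pvalb and 0.16 for Trdn on the log2 scale, with edgeR adjusted p = 0.664, 0.580 and 0.668, so none passed. These values rested partly on single libraries. Without T3 the interaction was 0.13 for Casq1 and 0.24 for Pvalb, and without C1 it was 0.08 for Trdn. The TE vs T value of Casq1 was 0.14, and -0.02 without T3.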

How the results depend on the processing

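Over 1860 alternative values of 70 member differences, 0 passed an adjusted p under 0.05, and the smallest adjusted p was 0.1002 (Casq2 in T vs C without T1, edgeR log2 fold change 0.87). Judged by unadjusted p, 2 members passed in T vs C, 3 in TE vs T, 1 for tumor, 1 for training and 2 for the interaction. These counts were not stable: over the alternatives they ran from 0 to 4 in T vs C, TE vs T, tumor and the interaction and from 0 to 2 for training, and without T4 all 5 were 0. A total of 3 values reversed, all under alternatives chosen after seeing the data. With T3 and T4 left out together, Casq2 was -0.18 in T vs C and -0.16 for tumor. With the slow fiber index as a covariate, Atp2a2 for training was 0.088. The cause was not tested. Changes of sign within 1 SE of 0 were not counted as reversals.

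With 1 library left out, the number of members that passed with the slow fiber index ranged from 2 (without T4) to 5 (without TE3). Of the single libraries left out, T4 moved Sln most in these comparisons, to 0.82 in T vs C and -0.67 in TE vs T. Leaving it out moved Casq2 to 0.31 and -0.43. With a replicate block, 0 members passed an adjusted p under 0.05 in each comparison, and at an unadjusted p under 0.05 it gave 4 in T vs C, 3 in TE vs T, 2 for tumor and 3 for the interaction. Same-numbered libraries of different groups deviated with r of -0.24 to 0.21, and 5 of 24 pairs exceeded 0.1. Pairs of different number had r of -0.30 to 0.37, and 14 of 72 exceeded 0.1. No pairing by number was seen, though these values cannot exclude one. Depth limits Sln, with 19 to 620 counts per library.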
